A study of Mus musculus with 12 samples.

Results

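The genes described here encode 7 chemokines (*Ccl2*, *Ccl5*, *Ccl7*, *Cxcl1*, *Cxcl5*, *Cxcl10* and *Cxcl12*) and 3 cytokines (*Il6*, *Lif* and *Csf1*) that fibroblasts are known to secrete. They were chosen by name, with earlier results of these data known. All 10 were found among the 24453 genes of the count table, and 9 of them passed the filter on low counts that left 14026 genes for testing. *Il6* did not pass. *Ccl7* and *Cxcl5* passed only through the TM6 libraries, where they were high, so they could hardly fail to differ from TM6, and the counts of members given below are descriptions.

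Chemokines are small secreted proteins that draw leukocytes along a gradient by binding G protein-coupled receptors. CC chemokines such as *Ccl2*, *Ccl5* and *Ccl7* mainly attract monocytes and lymphocytes, the CXC chemokines *Cxcl1* and *Cxcl5* attract neutrophils, *Cxcl10* is induced by interferons, and *Cxcl12* is made constitutively by stromal cells and retains blood progenitors. *Il6* and *Lif* signal through the shared receptor chain gp130, and *Csf1* sustains macrophages. In fibroblasts many of these genes are switched on through the transcription factor NF-kappa-B by IL-1, TNF or Toll-like receptor signals.

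RNA was measured in 4 lines of mouse embryonic fibroblasts (MEFs) of strain C57BL6/J, immortalised with the SV40 large T antigen, all of which carry or come from the genotype Pnpt1 neo-flox/neo-flox. *Pnpt1* encodes the mitochondrial ribonuclease PNPase. TM6 is the untreated parent line. The rho0 line was made from TM6 by 3 weeks of ditercalinium at 750 ng/mL, a drug that removes mitochondrial DNA, and PKO-1 and PKO-6 are Cre adenovirus-infected TM6 cells in which *Pnpt1* is knocked out. The study reported that both PKO clones had also lost mitochondrial DNA and did not respire. Each of the 3 derived lines was grown from a single cell and so is 1 clone, and a feature of a clone and an effect of its treatment cannot be told apart. All lines grew in medium with uridine at 50 µg/mL to a similar confluence, and 3 cultures of each gave 12 libraries. SDs therefore give the spread between cultures of a line, and p-values with the 4 lines as groups rest on that spread. The RNA of a sample was purified by TriZol or by a column kit, and which of them was used for which sample is not given in the sources used here.

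Libraries held 47164860 to 67991378 counts, of which 12.2% to 19.6% fell on the ribosomal precursor *Rn45s*. *Pnpt1* itself, of which Cre removes only exon 2, had 3131 ± 262 normalized counts in TM6, 5271 ± 230 in rho0, 1240 ± 44.3 in PKO-1 and, for PKO-6, 1944 ± 250 (SD over 3 libraries). Normalized counts are counts scaled to the size of a common library. The summed level of 10 fibroblast markers was 429025 to 473527 normalized counts in TM6, 215843 to 267145 in rho0, 360476 to 380766 in PKO-1 and 145376 to 189443 in PKO-6, and it therefore moved with the lines. Of the 10 markers, 7, 6, 9 and 8 had a mean of at least 100 in the same order of lines. *Col1a1*, *Col1a2* and *Vim* carry these sums. Of 9 markers tested against TM6, 8 were called lower and 0 higher in rho0, 2 and 4 in PKO-1, and 6 and 1 in PKO-6. In PKO-1 *Pdgfra* (mean 3225 against 342 in TM6), *Dcn* (183 against 25.3) and *Lum* (116 against 7.70) were higher. *Lum* passed the filter on low counts only through PKO-1, where it was high, so its part in these counts of calls is a description. *Dcn* was higher in PKO-6 as well (147). *Col3a1* had means of 4765 in TM6, 476 in rho0, 7011 in PKO-1 and 329 in PKO-6. *S100a4* had 23368, 6178, 28584 and 7942 in the same order. In PKO-1 *Col1a1* (98095 against 182206) and *Pdgfrb* (3001 against 6986) were lower than in TM6. *Thy1* was nearly absent already in TM6 (mean 2.81) and at 0 in PKO-6, and *Lum* was at 0 in rho0. Macrophages also make several of these chemokines. Their 8 markers summed to 371 to 400 normalized counts in TM6 and 262 to 328 in rho0. The sums were 492 to 506 in PKO-1 and 507 to 617 in PKO-6. *Cd14* (means of 278, 153, 397 and 318 in that order of lines) and *Cd68* (91.6, 124, 95.6 and 186) were the highest of them. *Lyz2* had means of 0.29, 0, 0.36 and 50.8. The defining macrophage gene *Adgre1* was at 0 in every library, as were the T cell genes *Cd3e* and *Cd3g*. The 4 endothelial markers summed to 44.9 to 86.8 in TM6 and 20.3 to 32.1 in rho0. In PKO-1 they summed to 27.9 to 55.9 and in PKO-6 to 158 to 177. The 5 epithelial markers summed to 254 to 276 in TM6, 409 to 471 in rho0, 815 to 842 in PKO-1 and 107 to 136 in PKO-6, and they did not move together: *Krt18* had means of 242, 430, 816 and 8.0 in that order of lines and *Epcam* had 4.35, 8.15, 1.46 and 88.0. The part of these markers in the results below was not tested.

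Most of the chemokine genes were lower in each derived line than in TM6, and the depth of the fall differed from gene to gene and from line to line. A gene is said to be called where edgeR's quasi-likelihood test gave an adjusted p below 0.01 and the log2 fold change exceeded 0.5 in size. In rho0, 8 of the 9 tested members were called lower and 0 higher than in TM6, where 21.4% of all tested genes were called lower and 20.7% higher. In PKO-1, 6 of 9 were called lower and 0 higher, against 17.9% and 16.4% of all tested genes. In PKO-6, 8 of 9 were called lower and 1 higher, against 19.4% and 21.9%. The median log2 fold change of the 9 members was -3.81 in rho0, -1.70 in PKO-1 and -2.87 in PKO-6, while the medians of all tested genes were 0.02, 0.00086 and 0.01. *Ccl7* in rho0 and *Cxcl12* in PKO-1, which had 3 counts or fewer in each library, lie below these medians also at the bound of their count ratio nearest to TM6, so the medians do not change with it. The same TM6 libraries enter these 3 comparisons. In bulk RNA, fewer cells making a transcript and less transcript per cell cannot be told apart.

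**Figure D1:**
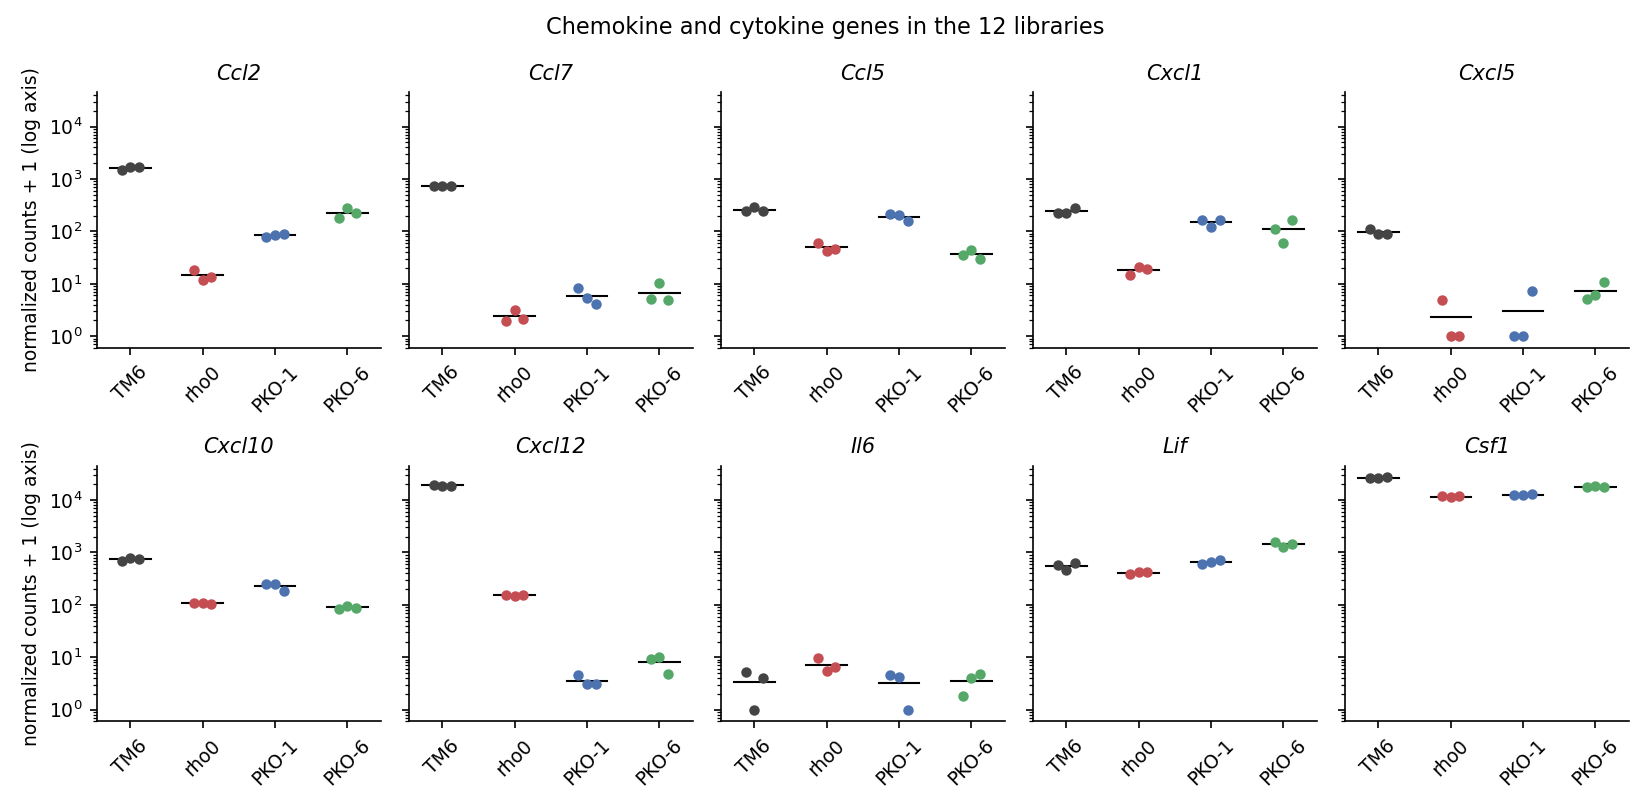
Normalized counts plus 1 (log axis) of the 10 genes in each of the 12 libraries, by line, with points for the 3 libraries and a bar at their mean. *Cxcl12* stands at 18748 to 19484 in TM6 and at no more than 9.33 in any PKO library, *Csf1* is at 11216 or more everywhere, and *Il6* is at 8.72 or less everywhere.

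*Ccl2* (chromosome 11, 82035577 to 82037452, GRCm38) encodes the main monocyte attractant of fibroblasts. Its 3 TM6 libraries had 1486, 1660 and 1707 normalized counts. The rho0 libraries had 17.4, 11.1 and 12.3, the PKO-1 libraries 78.6, 85.2 and 88.9, and the PKO-6 libraries 179, 273 and 224. No library of any line overlapped another line, and the order was TM6, PKO-6, PKO-1, rho0. *Ccl2* was thus 117-fold lower in rho0 than in TM6 (log2 fold change -6.87 ± 0.19 (SE), edgeR adjusted p = 2.21e-12), 19.1-fold lower in PKO-1 (-4.26 ± 0.15, edgeR adjusted p = 2.62e-11) and 7.22-fold lower in PKO-6 (-2.85 ± 0.13, edgeR adjusted p = 2.8e-10). Each step of the order was called, with edgeR adjusted p of at most 2.47e-06.

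*Ccl7*, a close relative that attracts monocytes through overlapping receptors, starts 8259 bases downstream of the end of *Ccl2* on the same strand (chromosome 11, 82045712 to 82047523). It had 749, 744 and 746 normalized counts in TM6. The raw counts were 1, 2 and 1 in rho0, 6, 4 and 3 in PKO-1, and 5, 9 and 4 in PKO-6. All 9 libraries of the derived lines were therefore close to the detection limit. TM6 exceeded rho0 by a ratio of depth-scaled counts of 528, with a 95% interval of 206 to 1940 that covers counting error only. The log2 fold change was -7.26 ± 0.22 in PKO-1 (edgeR adjusted p = 5.88e-12) and -7.02 ± 0.21 in PKO-6 (edgeR adjusted p = 2.74e-12). Between the derived lines no difference of *Ccl7* was called, except that PKO-6 was called above rho0 without PKO-6 replicate 3 (edgeR adjusted p = 0.00815 against 0.0116 with it). The neighbours on this stretch that also encode CC chemokines, *Ccl11*, *Ccl12* and *Ccl8*, had means below 1 normalized count in every line, TM6 included.

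*Ccl5* (chromosome 11, 83525779 to 83530518, minus strand) encodes RANTES, an attractant of T cells and monocytes. It had 246, 287 and 242 normalized counts in TM6. The rho0 libraries had 59.1, 42.1 and 45.8 and the PKO-6 libraries 34.4, 43.5 and 28.1, and these lines overlapped each other well below TM6. The PKO-1 libraries, at 210, 206 and 157, lay just below the lowest TM6 library. The log2 fold change was -2.39 ± 0.18 in rho0 (edgeR adjusted p = 4e-08) and -2.87 ± 0.18 in PKO-6 (edgeR adjusted p = 7.04e-09). In PKO-1 it was -0.44 ± 0.16 and not called (edgeR adjusted p = 0.0255). Unlike *Ccl2*, whose lowest level was in rho0, *Ccl5* had its lowest mean in PKO-6, at 35.3 ± 7.75 (SD, n = 3), which did not differ from the 49.0 ± 8.93 of rho0 beyond the threshold (edgeR adjusted p = 0.0639).

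*Cxcl1* (chromosome 5, 90891245 to 90893115) and *Cxcl5* (chromosome 5, 90759298 to 90761625) encode neutrophil attractants and lie in the same cluster, 129619 bases apart. *Cxcl1* had 219, 228 and 274 normalized counts in TM6 and 13.6, 19.9 and 17.9 in rho0. PKO-1 had 162, 121 and 165, and PKO-6 had 111, 60.1 and 165. The fall was 14.0-fold in rho0 (log2 fold change -3.81 ± 0.33, edgeR adjusted p = 1.86e-07). It was smaller in PKO-6, at -1.10 ± 0.26 (edgeR adjusted p = 0.00164), where the 3 libraries were widely spread. In PKO-1, with -0.68 ± 0.25, it was not called (edgeR adjusted p = 0.0298), although all 3 libraries lay below TM6. That call depends on PKO-6: without PKO-6 replicate 2 the PKO-1 change of -0.71 was called (edgeR adjusted p = 0.00294), as was -0.68 without PKO-6 replicate 3 (edgeR adjusted p = 0.00758) and -0.71 when only PKO-1 and TM6 were fitted (edgeR adjusted p = 0.00127), and over all 20 alternatives the adjusted p ran from 0.00127 to 0.118.

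*Cxcl5* had 112, 89.8 and 88.7 normalized counts in TM6, and its raw counts were 4, 0 and 0 in rho0, 0, 0 and 6 in PKO-1, and 5, 5 and 10 in PKO-6. Only TM6 was clearly above the detection limit. The ratio of depth-scaled counts of TM6 to the other lines was 69.1 for rho0 (95% interval 26.7 to 255), 44.7 for PKO-1 (20.3 to 123) and 15.7 for PKO-6 (10.0 to 26.1), by counting error only. All 3 differences were called (edgeR adjusted p = 2.51e-06, 4.7e-06 and 1.08e-05), and none among the derived lines was.

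*Cxcl10* (chromosome 5, 92346639 to 92348889, minus strand) encodes the interferon-induced attractant IP-10 and lies within an intron of *Art3*, with which it shares no exon. TM6 had 693, 802 and 749 normalized counts and PKO-1 had 250, 253 and 186. The rho0 libraries, at 106, 110 and 103, and the PKO-6 libraries, at 84.3, 95.3 and 87.3, were lower still and close together. The log2 fold change against TM6 was -2.82 ± 0.12 in rho0 (edgeR adjusted p = 1.93e-10), -1.70 ± 0.12 in PKO-1 (edgeR adjusted p = 1.95e-08) and -3.07 ± 0.12 in PKO-6 (edgeR adjusted p = 6.64e-11). *Cxcl10* and *Ccl5* shared the order TM6, PKO-1, rho0, PKO-6, in which the step from rho0 to PKO-6 was called for neither.

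*Cxcl12* (chromosome 6, 117168535 to 117181368) encodes SDF-1, the stromal chemokine that binds CXCR4 and ACKR3. It fell the furthest among the tested members in both PKO clones. TM6 had 19484, 18748 and 18919 normalized counts. The rho0 libraries had 155, 148 and 153, a 125-fold fall (log2 fold change -6.97 ± 0.08, edgeR adjusted p = 8.55e-16). In PKO-1 only 3, 2 and 2 raw counts were left, and in PKO-6 10, 9 and 4. The ratio of depth-scaled counts of TM6 to PKO-1 was 7479, with a 95% interval of 3630 to 18604, and that of TM6 to PKO-6 was 2667, with an interval of 1777 to 4208, by counting error only. The rho0 libraries kept a level that the PKO clones did not, 59.7-fold above PKO-1 (interval 28.7 to 149) and 21.3-fold above PKO-6 (interval 14.0 to 34.0), and both differences were called (edgeR adjusted p = 3.53e-11 and 6.59e-11). Between the clones the difference was not called (log2 fold change -1.44 ± 0.39, edgeR adjusted p = 0.0185), but it was without PKO-6 replicate 3 (edgeR adjusted p = 0.00664, and 0.00664 to 0.0744 over the 19 alternatives that gave a value).

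The 3 *Cxcl12* transcripts in the annotation share their first coding exons and differ in how the coding sequence ends, which gives the alpha, beta and gamma forms of SDF-1. These ends are shown because the forms could be counted apart in TM6. Each is written 5′ to 3′ on the plus strand of GRCm38, from 24 bases before the point where they part, with the bases of its own up to the stop codon in capitals (sequences from GENCODE).
NM_021704.3: tacctggagaaagctttaaacaagTAA
NM_013655.4: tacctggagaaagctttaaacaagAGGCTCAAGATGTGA
NM_001012477.2: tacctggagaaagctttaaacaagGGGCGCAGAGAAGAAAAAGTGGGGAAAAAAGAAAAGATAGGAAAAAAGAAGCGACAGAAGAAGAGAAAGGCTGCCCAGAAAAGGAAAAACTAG
The shortest end, which adds only a stop codon, made up 61.1%, 63.7% and 64.7% of the gene's estimated transcripts in the TM6 libraries. The end of 15 own bases made up 25.8%, 27.2% and 24.2%, and the end of 93 own bases 13.2%, 9.10% and 11.2%. In rho0 the shares were 61.0% ± 5.82, 29.6% ± 10.6 and 9.40% ± 4.73 (SD, n = 3 each) in the same order, on 134 to 160 counts a library, and each overlapped its share in TM6. The fall in rho0 therefore covered the 3 forms, and in the PKO clones too few counts were left to estimate shares.

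*Lif* (chromosome 11, 4257568 to 4272514), which encodes leukemia inhibitory factor, was the exception among the tested members. TM6 had 580, 470 and 633 normalized counts, rho0 had 389, 418 and 428, and PKO-1 had 598, 644 and 727. PKO-6 stood apart from all of them with 1568, 1289 and 1474. *Lif* was 2.57-fold higher in PKO-6 than in TM6 (log2 fold change 1.36 ± 0.11, edgeR adjusted p = 9.11e-08). The PKO-1 libraries overlapped TM6 (0.23 ± 0.11, edgeR adjusted p = 0.0937). In rho0 all libraries were below TM6, but the change of -0.45 ± 0.12 missed the fold threshold (edgeR adjusted p = 0.00324), and it was called without TM6 replicate 2, the lowest TM6 library, at -0.56 (edgeR adjusted p = 0.000458).

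The 2 *Lif* transcripts start from different first exons. The one that starts upstream, at position 4257568 (NM_008501.2), made up 24.1%, 39.2% and 37.4% of the estimated transcripts in TM6 and 17.2%, 12.5% and 46.5% in rho0. In PKO-1 its share was 57.8%, 63.3% and 60.3%, and in PKO-6 it was 61.1%, 61.9% and 69.1%. Every PKO library was above every TM6 and rho0 library in this share, in both clones, whether *Lif* itself was higher (PKO-6) or overlapped TM6 (PKO-1). The other transcript (NM_001039537.2) starts further downstream, at 4266796, and made up the rest. Shares are estimates that rest on the reads near the first exons and were not tested.

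*Il6* (chromosome 5, 30013114 to 30019975), which encodes interleukin-6, was close to the detection limit in all lines. Its raw counts were 5, 0 and 3 in TM6, 9, 4 and 5 in rho0, 3, 3 and 0 in PKO-1, and 1, 3 and 4 in PKO-6. It did not pass the filter and was not tested. The sums of 8, 18, 6 and 8 counts give a ratio of rho0 to TM6 of 2.55, with a 95% interval of 1.05 to 6.77 from counting error only, at a level too low to read as a change.

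*Csf1* (chromosome 3, 107741048 to 107760469, minus strand), the macrophage growth factor gene, had the narrowest range of line means on the log2 scale among the tested members. It had 26824, 26237 and 27428 normalized counts in TM6, and 11797, 11216 and 11956 in rho0. PKO-1 had 12268, 12266 and 12999, and PKO-6 had 17754, 18334 and 17769. The fall was 2.30-fold in rho0 (log2 fold change -1.20 ± 0.05, edgeR adjusted p = 1.15e-10), 2.14-fold in PKO-1 (-1.10 ± 0.05, edgeR adjusted p = 3.39e-10) and 1.49-fold in PKO-6 (-0.58 ± 0.05, edgeR adjusted p = 1.46e-07). The order was TM6, PKO-6, PKO-1, rho0, as for *Ccl2*, and the PKO-1 and rho0 libraries did not overlap but were not called different (edgeR adjusted p = 0.0849).

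*Csf1* is spliced into forms that are secreted or stay at the cell surface. The transcript that lacks most of the large exon and so encodes the short, membrane-bound form (NM_001113529.1) was a minor one, at 2.64% ± 0.43 of the gene's estimated transcripts in TM6, 3.57% ± 0.32 in rho0, 4.99% ± 0.70 in PKO-1 and, for PKO-6, 7.97% ± 0.86 (SD over 3 libraries). Its share in every library of rho0, PKO-1 and PKO-6 was above the highest TM6 library, at 3.10%. The transcript with an alternative last exon (NM_001113530.1) moved the other way, from 18.8% ± 0.40 in TM6 to 11.8% ± 0.52 in rho0, 15.3% ± 0.94 in PKO-1 and 12.4% ± 1.27 in PKO-6, again without overlap with TM6. The principal transcript (NM_007778.4) held 78.5% ± 0.11 in TM6, 84.7% ± 0.47 in rho0, 79.7% ± 1.40 in PKO-1 and 79.6% ± 2.10 in PKO-6.

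**Figure D2:**
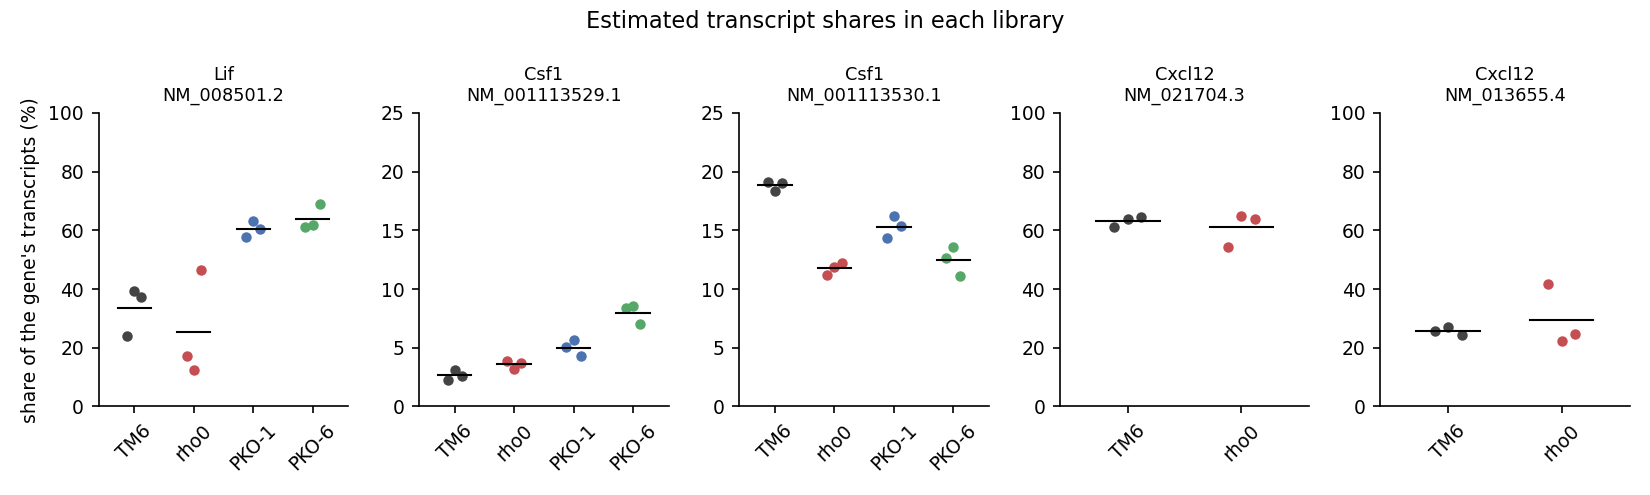
Share of a gene's estimated transcripts (percent) held by the named transcript in each library, with points for the 3 libraries of a line and a bar at their mean. The upstream-start *Lif* transcript is at 57.8% to 69.1% in the PKO libraries and at 12.5% to 46.5% in TM6 and rho0, the short *Csf1* form is highest in PKO-6, and *Cxcl12* is shown only for the lines with enough counts.

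Levels of different genes can be compared only per transcript length, for which the deposited TPM values, which scale counts to transcript length and library size, were summed over the transcripts of a gene. In TM6, *Cxcl12* at 235 ± 1.18 TPM and *Csf1* at 224 ± 6.86 led, followed by *Ccl2* at 78.9 ± 6.09, *Ccl7* at 36.8 ± 0.43, *Cxcl10* at 24.7 ± 1.67 and *Ccl5* at 22.6 ± 1.99 (SD, n = 3 each). The order of *Cxcl12* and *Csf1* was the reverse when counts were divided by the longest transcript. The other members had 9.53 ± 1.26 (*Cxcl1*), 4.38 ± 0.68 (*Lif*), 2.00 ± 0.28 (*Cxcl5*) and 0.08 ± 0.07 TPM (*Il6*). In the derived lines *Csf1* alone kept a high level, at 93.0 ± 6.20 TPM in rho0, 98.8 ± 6.88 in PKO-1, and PKO-6 gave 142 ± 6.65. In rho0, *Ccl5* at 4.17 ± 0.35, *Cxcl10* at 3.46 ± 0.32 and *Lif* at 3.17 ± 0.37 TPM came next, an order that was reversed with *Lif* first when counts were divided by the longest transcript (94.5 counts per kilobase for *Lif*, 90.9 for *Cxcl10* and 87.9 for *Ccl5*). In PKO-1 the next was *Ccl5* at 15.97 ± 2.18 TPM, and in PKO-6 it was *Lif* at 10.9 ± 1.46 beside *Ccl2* at 10.5 ± 2.09, on either scale.

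**Figure D3:**
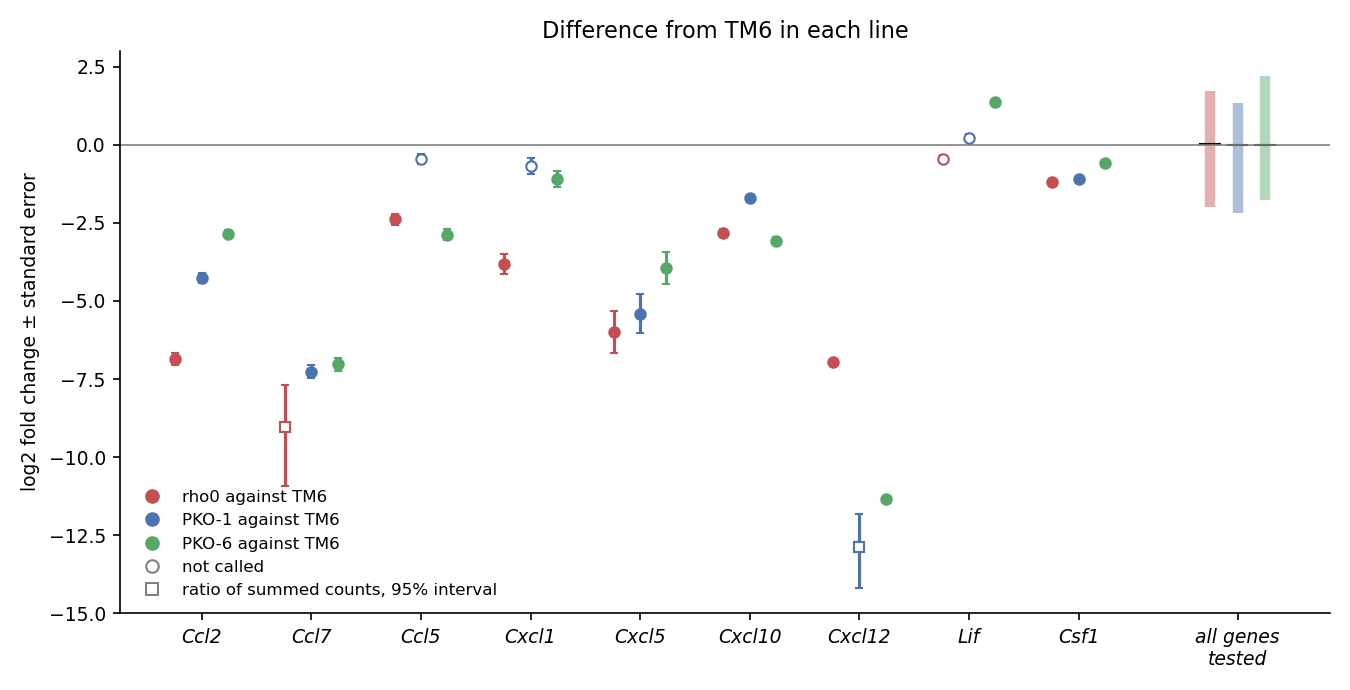
Log2 fold change of the 9 tested genes in rho0, PKO-1 and PKO-6 against TM6, with standard errors, filled where called. Squares give the ratio of summed counts with its 95% counting interval for genes at 3 counts or fewer in every library of a line, the bars on the right span the 5th to 95th percentile of all tested genes, and most chemokines lie below those bars while *Lif* and *Csf1* lie within them.

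The derived lines also differed from one another. Between the clones, PKO-1 was called lower than PKO-6 for 3 members and higher for 2 of the 9 tested, against 17.6% and 11.5% of all tested genes. PKO-1 had 2.65-fold less *Ccl2* RNA than PKO-6 (log2 fold change -1.41 ± 0.15, edgeR adjusted p = 2.47e-06), *Lif* 2.20-fold lower (-1.14 ± 0.11, edgeR adjusted p = 9.65e-07) and *Csf1* 1.43-fold lower (-0.52 ± 0.05, edgeR adjusted p = 7.59e-07). In the other direction, *Ccl5* was 5.39-fold higher in PKO-1 (2.43 ± 0.19, edgeR adjusted p = 8.49e-08) and *Cxcl10* was 2.58-fold higher (1.37 ± 0.13, edgeR adjusted p = 5.97e-07). Neither clone was therefore lower throughout.

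Compared directly with rho0, PKO-1 was called higher for 5 members (*Ccl2*, *Ccl5*, *Cxcl1*, *Cxcl10* and *Lif*) and lower for *Cxcl12* alone, where 15.1% of tested genes were called higher and 17.6% lower. PKO-6 was called higher than rho0 for 4 (*Ccl2*, *Cxcl1*, *Lif* and *Csf1*) and lower for *Cxcl12* alone, against 13.3% and 8.16%. *Cxcl1* showed the largest of the higher calls in PKO-1, with 8.74-fold the level of rho0 (log2 fold change 3.13 ± 0.34, edgeR adjusted p = 2.71e-06), and *Ccl2* in PKO-6, with 16.2-fold (4.01 ± 0.20, edgeR adjusted p = 2.45e-09). *Ccl5* and *Cxcl10*, by contrast, had lower means in PKO-6 than in rho0, with log2 fold changes of -0.48 ± 0.21 and -0.25 ± 0.13 that were not called (edgeR adjusted p = 0.0639 and 0.125).

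When both clones were taken as a single PKO group of 6 libraries, as the study did, the gap between clones counted as spread. edgeR's biological coefficient of variation rose from 0.0837 with the lines apart to 0.248. Of the 9 tested members, 6 were called lower in PKO than in TM6 and 0 higher (*Ccl2*, *Ccl7*, *Cxcl5*, *Cxcl10*, *Cxcl12* and *Csf1*), where 12.2% of tested genes were called lower and 13.5% higher. *Ccl5* (log2 fold change -1.19 ± 0.59, edgeR adjusted p = 0.113), *Cxcl1* (-0.88 ± 0.27, edgeR adjusted p = 0.0198) and *Lif* (0.90 ± 0.32, edgeR adjusted p = 0.035) were not. For *Ccl5* and *Lif* the pooled group joined clones that had been called different from each other. The pooled change of *Cxcl1* was called at -0.76 without PKO-6 replicate 2 (edgeR adjusted p = 0.00741), and at -0.90 by the Wald test of DESeq2 (adjusted p = 0.00688).

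Since several of these genes are textbook targets of NF-kappa-B, the sequence upstream of their start was searched for motifs of 4 factor families. RefSeq promoter sequence (GRCm38.p6) was at hand for 6 members, which are *Cxcl1*, *Cxcl10*, *Cxcl12*, *Il6*, *Csf1* and *Lif*, and not for *Ccl2*, *Ccl5*, *Ccl7* and *Cxcl5*. In the 250 bases before the start, on either strand, a kappa-B consensus was found in 4 of the 6 (*Cxcl1*, *Cxcl10*, *Il6* and *Csf1*), and in 3.90% of 32851 promoters of the same length. The AP-1 motif TGANTCA was found in *Cxcl10*, *Il6* and *Lif* and in 6.75% of promoters, the interferon-response motif GAAANNGAA in *Cxcl10* and 7.13%, and the C/EBP motif TTGCNNAA in *Il6* and 9.56%. *Cxcl12* held none of the 4. For *Lif* only the sequence before the upstream start was searched. The downstream start, whose transcript made up 66.5% of the estimated *Lif* transcripts in TM6 and 74.6% in rho0, was not. A match is a description of the letters and not evidence that a factor binds.

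The promoters of *Cxcl10* and *Cxcl1* are printed as chemokines that fell in rho0 and hold kappa-B matches, and that of *Cxcl12* as the deepest fall without a match. That of *Csf1* is printed as the abundant gene with a shallow fall in rho0, and that of *Lif*, at its upstream start, as the gene that rose in PKO-6. Each runs 5′ to 3′ on the strand of its gene and ends at the base before the start, with matches to a motif in capitals.
*Cxcl10*, chr5:92348890-92349139, minus strand: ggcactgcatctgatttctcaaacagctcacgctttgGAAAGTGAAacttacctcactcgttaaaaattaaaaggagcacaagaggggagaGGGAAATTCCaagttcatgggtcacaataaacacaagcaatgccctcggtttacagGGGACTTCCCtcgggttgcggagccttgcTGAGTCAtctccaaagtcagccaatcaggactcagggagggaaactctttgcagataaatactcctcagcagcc
*Cxcl1*, chr5:90890995-90891244, plus strand: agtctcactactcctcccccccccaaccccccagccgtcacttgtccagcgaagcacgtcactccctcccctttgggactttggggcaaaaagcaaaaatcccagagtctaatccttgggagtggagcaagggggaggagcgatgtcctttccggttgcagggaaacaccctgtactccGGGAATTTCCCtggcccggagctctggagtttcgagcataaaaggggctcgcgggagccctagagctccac
*Cxcl12*, chr6:117168285-117168534, plus strand: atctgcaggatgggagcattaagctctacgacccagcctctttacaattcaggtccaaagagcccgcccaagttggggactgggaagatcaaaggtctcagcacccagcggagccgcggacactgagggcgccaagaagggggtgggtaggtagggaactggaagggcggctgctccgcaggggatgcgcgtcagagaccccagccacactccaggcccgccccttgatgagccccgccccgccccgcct
*Csf1*, chr3:107760470-107760719, minus strand: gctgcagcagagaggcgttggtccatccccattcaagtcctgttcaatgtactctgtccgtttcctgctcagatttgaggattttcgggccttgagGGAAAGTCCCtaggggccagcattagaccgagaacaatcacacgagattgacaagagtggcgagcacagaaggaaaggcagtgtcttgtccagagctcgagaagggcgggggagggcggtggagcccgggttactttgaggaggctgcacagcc
*Lif*, chr11:4257318-4257567, plus strand: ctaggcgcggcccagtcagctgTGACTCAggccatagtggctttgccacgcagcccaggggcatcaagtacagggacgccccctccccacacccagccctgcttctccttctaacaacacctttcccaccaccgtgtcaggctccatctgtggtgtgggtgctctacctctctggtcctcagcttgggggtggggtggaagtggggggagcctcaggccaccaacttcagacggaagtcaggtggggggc
In *Cxcl10* the capitals mark, in order, the interferon-response motif 213 bases before the start, kappa-B matches 159 and 103 bases before it, and the AP-1 motif 74 bases before it. The capitals of *Cxcl1* are 2 overlapping kappa-B matches on opposite strands, 71 bases before the start. *Csf1* has a kappa-B match on the opposite strand 154 bases before its start, and *Lif* an AP-1 motif 228 bases before. The kappa-B group did not move alike: *Cxcl1* and *Cxcl10* fell 14.0-fold and 7.05-fold in rho0, *Csf1* fell 2.30-fold and *Il6* was too low to test. In PKO-1 the falls of *Cxcl1*, *Cxcl10* and *Csf1* were 1.61-fold (not called), 3.26-fold and 2.14-fold. In PKO-6 they were 2.14-fold, 8.41-fold and 1.49-fold, so the order of *Cxcl1* and *Csf1* was not the same in every line.

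Lists of related genes are given by their counts of calls, to be read against the shares of all tested genes. Against TM6 these were 21.4% lower and 20.7% higher in rho0, 17.9% and 16.4% in PKO-1, and 19.4% and 21.9% in PKO-6, and with lists this short a count near them says nothing about the list. Of 28 other chemokine genes, 5 passed the filter, and 4, 4 and 5 of them were called lower than TM6 in rho0, PKO-1 and PKO-6 (all genes 21.4%, 17.9% and 19.4%), with 0 called higher. *Ppbp*, among these 5, passed only through TM6 and could hardly fail to be called lower. *Cx3cl1*, the membrane-bound chemokine fractalkine, had 1434 ± 74.7 normalized counts in TM6, 382 ± 41.0 in rho0, 833 ± 72 in PKO-1 and, for PKO-6, 474 ± 59.3 (SD over 3 libraries), with log2 fold changes of -1.90, -0.78 and -1.60, all called (edgeR adjusted p of at most 1.1e-05). A pair outside the naming rule was picked after its values were seen. *Ppbp*, which lies beside *Cxcl5* (chromosome 5, 90768518 to 90770062), had raw counts of 83, 98 and 89 in TM6, 0 in every rho0 library, 2, 1 and 1 in PKO-1, and 0, 0 and 2 in PKO-6. *Ccl9* had 128 ± 0.46 normalized counts in TM6, 34.9 ± 11.9 in rho0, 19.9 ± 10.2 in PKO-1 and 14.9 ± 6.79 in PKO-6, and was called lower in all 3.

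Among 12 other cytokines of the *Il6*, *Lif* and *Csf1* families and of the IL-1 and TNF type, 5 passed the filter. Of these, 2 were called higher in each of rho0, PKO-1 and PKO-6 against TM6 (all genes 20.7%, 16.4% and 21.9%), and 2, 0 and 2 were called lower (21.4%, 17.9% and 19.4%). *Ctf1*, which encodes the gp130 ligand cardiotrophin-1, rose from 112 ± 9.21 normalized counts in TM6 to 259 ± 6.79 in rho0, 185 ± 29.1 in PKO-1 and 215 ± 47.7 in PKO-6 (log2 fold changes 1.2, 0.72 and 0.94). The other gene that rose, *Il11*, was picked after its values were seen, and it passed the filter through the derived lines, where it was higher. This gp130 ligand had 7.64 ± 4.18 normalized counts in TM6, 99.1 ± 10.1 in rho0, 32.7 ± 4.89 in PKO-1 and 52.0 ± 2.90 in PKO-6, with log2 fold changes of 3.66 ± 0.27, 2.06 ± 0.30 and 2.73 ± 0.28 (edgeR adjusted p = 4.02e-08, 4.19e-05 and 1.14e-06). *Il34*, the other ligand of the CSF-1 receptor, had 163 ± 9.13, 70.7 ± 7.33, 161 ± 21.9 and 109 ± 24.4 normalized counts in the same order, and was called lower in rho0 (-1.21) and PKO-6 (-0.58) but not in PKO-1 (-0.01, edgeR adjusted p = 0.942). The classical inducers *Il1a*, *Il1b* and *Tnf* did not pass the filter.

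Of 16 receptor genes for these ligands, 6 passed the filter. Against TM6, 2 were called lower and 1 higher in rho0, 2 lower and 0 higher in PKO-1, and 4 lower and 0 higher in PKO-6. The shares of all genes were 21.4% and 20.7%, 17.9% and 16.4%, and 19.4% and 21.9%, so the single higher call in rho0 is near the share of all genes. *Lifr*, the receptor of *Lif*, fell furthest, from 1630 ± 29.1 normalized counts in TM6 to 112 ± 10.4 in rho0, 53.3 ± 13.3 in PKO-1 and 33.9 ± 12.3 in PKO-6 (log2 fold changes -3.86 ± 0.17, -4.92 ± 0.18 and -5.56 ± 0.19, edgeR adjusted p of at most 1.91e-10). *Lifr* was thus at its lowest mean in PKO-6, the line in which *Lif* was highest. *Il6ra*, the interleukin-6 receptor, fell by 1.59, 1.09 and 1.26 on the log2 scale, from 797 ± 33.2 normalized counts in TM6. *Il6st*, the gene of gp130, remained abundant, with 20813 ± 764 normalized counts in TM6, 14961 ± 505 in rho0, 16631 ± 811 in PKO-1 and 12071 ± 333 in PKO-6, and passed both thresholds in PKO-6 (-0.79), whereas the changes of -0.48 and -0.32 in rho0 and PKO-1 missed the fold threshold. *Ackr3*, a scavenging receptor of CXCL12, was called higher in rho0 (459 ± 30.5 against 246 ± 26.3 normalized counts in TM6, log2 fold change 0.90) and lower in PKO-6 (54.9 ± 2.87, -2.17), while PKO-1 had 199 ± 20.7 (-0.31, edgeR adjusted p = 0.0251). *Cxcr2*, the receptor of CXCL1 and CXCL5, had 865 ± 212, 1207 ± 95.9, 820 ± 226 and 684 ± 71.0 normalized counts in TM6, rho0, PKO-1 and PKO-6, and *Csf1r* had means of 6.24 to 13.1, and neither was called against TM6. The other receptor genes, among them *Ccr2* and *Cxcr4*, did not pass the filter, with means of at most 7.86 normalized counts in any line.

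NF-kappa-B is the factor through which many of the members are induced. Of 17 NF-kappa-B factors and regulators, all tested, 8 were called lower and 1 higher in rho0, 5 and 1 in PKO-1, and PKO-6 gave 4 and 0. Beside the lower shares of all genes, 21.4%, 17.9% and 19.4%, the count of 4 in PKO-6 is close to that of genes in general. The list's median log2 fold change was -0.59, -0.25 and -0.33. *Rela*, the main activating subunit, had 5875 ± 254 normalized counts in TM6 and log2 fold changes of 0.14, -0.11 and 0.17 that were not called. *Nfkbia*, which encodes the inhibitor I-kappa-B-alpha and is itself an NF-kappa-B target, fell by 1.39, 0.71 and 1.01 on the log2 scale from 1907 ± 26.1 normalized counts. *Rel* fell by 0.91, 0.77 and 1.36 from 716 ± 56.5. *Nfkbie*, another inhibitor, was called lower in rho0 (-0.98) and PKO-1 (-0.87) but not in PKO-6 (0.22, edgeR adjusted p = 0.0817). *Nfkbiz*, a co-activator, was called higher in PKO-1 (0.84 ± 0.22, edgeR adjusted p = 0.00445) and in neither of the others (-0.59 and -0.37, edgeR adjusted p = 0.0321 and 0.161). *Rela* was named after its values were seen.

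Of 16 receptors and adaptors that induce such genes, all tested, 7 were called lower and 1 higher in rho0, 6 and 4 in PKO-1, and 7 and 2 in PKO-6, where all genes gave 21.4% and 20.7%, 17.9% and 16.4%, and 19.4% and 21.9%. *Osmr*, the oncostatin M receptor, fell in all 3 lines (log2 fold changes -1.47, -1.35 and -1.38, from 2083 ± 26.6 normalized counts in TM6). *Ifngr1*, a chain of the interferon-gamma receptor, fell by 1.04, 0.70 and 0.58 on the log2 scale, and *Tnfrsf1a*, the TNF receptor gene, fell by 1.00, 0.56 and 0.67. *Tlr2* went in different directions, with 1422 ± 82.1 normalized counts in TM6, 637 ± 28.5 in rho0, 2216 ± 35.9 in PKO-1 and 931 ± 76.1 in PKO-6 (log2 fold changes -1.16, 0.64 and -0.61, all called).

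Among 14 interferon regulatory factors, STATs and their kinases and inhibitors, 5 were called lower and 0 higher in rho0, 4 and 1 in PKO-1, and 6 and 0 in PKO-6. All genes gave 21.4% lower and 20.7% higher, 17.9% and 16.4%, and 19.4% and 21.9%. *Irf1*, an activator of *Cxcl10* and *Ccl5*, had 1311 ± 69.5 normalized counts in TM6, 660 ± 24.3 in rho0, 642 ± 27.5 in PKO-1 and 460 ± 23.8 in PKO-6 (log2 fold changes -0.99, -1.03 and -1.51). *Stat3*, which relays gp130 signals, had log2 fold changes of -1.2, -0.79 and -1.59 from 4662 ± 280 normalized counts, and *Stat2* fell by 0.65, 0.77 and 0.70. *Socs3*, a feedback inhibitor induced by STAT3, was called lower in rho0 (-0.83) and PKO-6 (-1.25), while its change of -0.28 in PKO-1 missed the fold threshold.

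C/EBP factors bind promoters of several cytokine genes. Of 5 genes 4 were tested, and 3, 1 and 4 of them were called higher than TM6 in rho0, PKO-1 and PKO-6, with 0 lower. All genes gave 20.7%, 16.4% and 21.9% higher, and 1 of 4 in PKO-1 is near that share. *Ddit3*, the stress-induced factor CHOP, had 1016 ± 52.4 normalized counts in TM6, 4600 ± 381 in rho0, 1113 ± 63.7 in PKO-1 and 4575 ± 449 in PKO-6. *Cebpb*, an activator of *Il6* and *Ccl2*, had 3770 ± 260, 6505 ± 904, 2891 ± 81.9 and 6989 ± 1099 in the same order. Both were called higher in rho0 and PKO-6 (log2 fold changes 2.18 and 2.17 for *Ddit3*, 0.79 and 0.89 for *Cebpb*) and not in PKO-1 (0.13 and -0.38, edgeR adjusted p = 0.179 and 0.00833). *Cebpg* rose in all 3 lines (1.47, 0.61 and 0.97), and *Cebpd* was called higher in PKO-6 (0.51). Exons of *Ddit3* overlap *Mars* and those of *Cebpd* overlap *Spidr* on the opposite strand, and whether strand was used in counting is not given in the sources used here, so these counts are uncertain.

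Several RNA-binding proteins shorten or lengthen the life of cytokine mRNAs. Of 9 such genes, all tested, 1 was called lower in rho0, 0 in PKO-1 and 2 in PKO-6, and 0 were called higher in any line. Lower calls made up 21.4%, 17.9% and 19.4% of all genes, so the count of 2 in PKO-6 is near the share of all genes. *Zfp36*, the gene of tristetraprolin, was called lower in PKO-6 (log2 fold change -0.70 ± 0.09, edgeR adjusted p = 1.03e-05), as was *Elavl1* (-0.57 ± 0.05, edgeR adjusted p = 4.96e-07), and *Zfp36l1* was called lower in rho0 (-0.62 ± 0.05, edgeR adjusted p = 4.76e-08).

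The same lists had 5 other chemokines, 5 other cytokines, 6 receptors of the members, 17 NF-kappa-B genes, 16 inducing receptors, 14 interferon and STAT genes, 4 C/EBP genes and 9 decay factors tested between the derived lines. For PKO-1 against PKO-6 the numbers called lower and higher were, in that order of lists, 0 and 1, 0 and 2, 0 and 1, 1 and 3, 1 and 2, 2 and 4, 2 and 0, and 0 and 2, where 17.6% of all genes were called lower and 11.5% higher. For PKO-1 against rho0 they were 1 and 2, 1 and 1, 2 and 1, 1 and 2, 1 and 4, 2 and 2, 3 and 1, and 0 and 3, against 17.6% and 15.1%. For PKO-6 against rho0 they were 1 and 0, 1 and 1, 3 and 0, 1 and 1, 0 and 2, 1 and 0, 0 and 1, and 0 and 1, against 8.16% and 13.3%. With both clones pooled against TM6 they were 4 and 0, 0 and 2, 3 and 0, 4 and 0, 4 and 2, 4 and 0, 0 and 1, and 1 and 0, against 12.2% and 13.5%. Many of these counts are near the shares of all genes, and nothing is read from them.

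**Figure D4:**
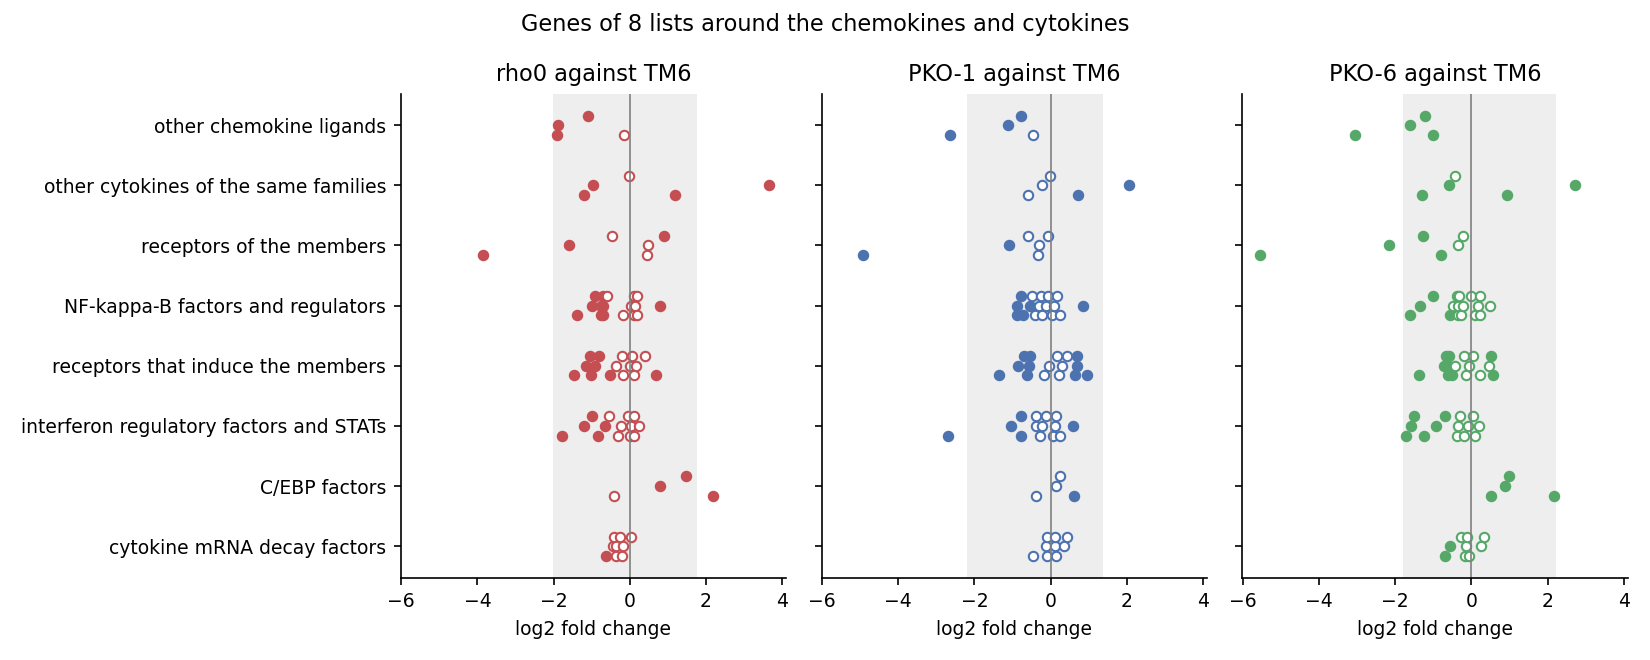
Log2 fold change against TM6 of the tested genes of 8 lists in rho0, PKO-1 and PKO-6, with filled points for called genes and a grey band from the 5th to the 95th percentile of all tested genes. Genes with 3 counts or fewer in every library of a compared line, such as *Ppbp*, are not drawn, and most factor genes lie within the band while *Lifr* lies left of it and *Il11* right of it.

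The genes whose log2 level followed each member most closely over the 12 libraries were found among the 11204 genes whose mean reached 100 normalized counts. With 4 lines of 3 libraries, such correlations mostly reflect the 4 line means and are given as descriptions. The best for *Ccl2* were *Ephb4*, *Myo10* and *Deptor* (Pearson r of 0.991 to 0.993), for *Ccl7* *Prkar1b* and *Thbs2* (0.992 to 0.993), and for *Ccl5* *P4hb*, *Slc6a6* and *Timp1* (0.996 to 0.997). *Cxcl10* was nearest to *Igf2bp3*, *Ripk3* and *Morf4l2* (0.992 to 0.995), *Cxcl12* to *Alx4*, *Tef* and *Fads1* (0.995 to 0.996) and *Csf1* to *Chst11*, *Sertad4* and *Ctnnal1* (0.993 to 0.995). *Cxcl1* had looser neighbours, *Hs6st2*, *Slc30a7* and *Gas6* (0.963 to 0.973), as had *Lif* with *Lysmd1*, *Klhl24* and *Slc25a23* (0.977 to 0.980). Among the members themselves the closest pair was *Csf1* and *Ccl2* (0.954), followed by *Cxcl10* and *Ccl5* (0.915), and *Lif* had coefficients of -0.48 to 0.39 with the other abundant members. *Cxcl12* and *Alx4*, a homeobox gene, shared the order TM6, rho0, PKO-6, PKO-1, with *Alx4* at 1064, 24.7, 1.26 and 0 normalized counts. The last step, between the clones, was close to the detection limit for both genes and was not called for *Cxcl12*.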

How the data were processed

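Gene and transcript tables from 12 RNA-Seq libraries, 3 cultures of each of 4 MEF lines, were used. The authors made stranded, rRNA-depleted libraries, merged technical duplicates, aligned paired reads with Bowtie2 and estimated abundances with RSEM (v1.2.25) on mm10 RefSeq. The gene table holds their deposited expected counts, of which 12.5% had decimals. The transcript tables hold the authors' TPM values and, as deposited, each transcript's percent share of its gene. The strand setting of RSEM and the RNA purification of each sample are not given in the sources used here.

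Expected counts were rounded and tested in R 4.3.3 with edgeR 4.0.16 (quasi-likelihood test, TMM, filterByExpr with a minimum count of 10, Benjamini-Hochberg adjustment over all genes tested), with the 4 lines as groups, or with both PKO clones as 1 group. Genes were called at an adjusted p below 0.01 and a log2 fold change above 0.5 in size, as in the study, which used DESeq2 (v1.18.1). The test was checked on simulated counts. Count ratios carry exact 95% intervals, which cover counting error only.

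From each list, up to 4 genes were named: those called against TM6, at a mean of 100 normalized counts or more, with the largest fold changes. All receptors of the members could be named. Rela, Il11, Ccl9 and Ppbp were named after their values were seen. The cell type markers given by name were also picked outside this rule, with their values seen. The members and the lists were chosen with earlier results of these data known. Replicate numbers were not used as pairs in the main tests. Alternatives were DESeq2 1.42.0, other scalings, filters and thresholds, a replicate block and each library left out. 1 gene among those most like *Ccl7* is not reported here.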

Additional observations from a re-analysis of the deposited data

Results flagged for a closer look

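The 2 PKO clones differed from each other, in a direct test of PKO-1 against PKO-6 (edgeR, 3 cultures each), for 5 of the 9 tested genes. *Ccl2*, *Lif* and *Csf1* were lower in PKO-1, with log2 fold changes of -1.41, -1.14 and -0.52. *Ccl5* and *Cxcl10* were higher in PKO-1, with 2.43 and 1.37. Each of the 5 differed in the same direction in every pair of libraries. The clones differ in the same comparison in 17.6% of all tested genes called lower and 11.5% called higher. Each clone is 1 colony, so a difference between colonies and a difference in the knockout cannot be told apart.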

How the results depend on the processing

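Each comparison was repeated under 20 alternatives, 8 other settings and 12 with a library left out. The number of members called stayed within 1.5 times its value in all of them. With a library left out it ran from 8 to 9 for rho0, 6 to 7 for PKO-1, 9 to 9 for PKO-6 and 6 to 7 for both clones against TM6, from 5 to 6 between the clones, and from 6 to 6 and 5 to 6 for PKO-1 and PKO-6 against rho0.

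The replicate block gave the same counts of 8, 6, 9, 6, 5, 6 and 5 in that order. Over 18 same-numbered pairs of libraries the correlation of deviations had a median of 0.124 and ran from -0.385 to 0.25. Over 36 pairs with other numbers the median was -0.0467, with a range of -0.415 to 0.49. These ranges overlapped, and the replicate numbers were not used as pairs in the main tests.

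The direction of *Ccl7* between PKO-1 and PKO-6 reversed to 0.00696 without PKO-1 replicate 3 and to 0.24 without PKO-6 replicate 2 (lowest value with a library left out -0.59), and that of *Cxcl5* between PKO-1 and rho0 to -3.62 without PKO-1 replicate 3, which held all 6 *Cxcl5* counts of its line (highest value 4.19). None of these was called. A log2 threshold of 1 lost the calls of *Csf1* in PKO-6 and the pooled clones against TM6, in PKO-1 against PKO-6 and in PKO-6 against rho0, and of *Lif* in PKO-1 against rho0. An adjusted p of 0.05 without a fold threshold added *Ccl5* and *Cxcl1* in PKO-1, *Lif* in rho0 and *Cxcl1* and *Lif* in the pooled clones against TM6, *Cxcl12* between the clones, and *Ccl7* in both clones against rho0. Depth limits *Il6* in all lines, *Ccl7* and *Cxcl5* in the derived lines and *Cxcl12* in the PKO clones.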
